A study of Oryctolagus cuniculus with 16 samples.

Results

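The genes described here encode the proteins of the cytosolic ribosome, and were taken from the count table by their symbols (RPL or RPS followed by a number, with the few letters that mark related genes, RPLP0 to RPLP2, and RPSA, leaving out the RPS6K kinases). Of 13788 gene symbols, 34 matched and 33 had a count in at least 1 of the 16 libraries, 20 for proteins of the large (60S) subunit and 13 for proteins of the small (40S) subunit. RPL39 matched but was at 0 in all 16 libraries, and is not counted among the 33. Several well-known members, among them the P stalk genes RPLP0, RPLP1 and RPLP2, RPSA, RPS6, RPL3, RPL7, RPL22 and RPS27, were not among the 34 matches. They were not analysed here, and the sums and shares below thus cover only a part of the genes of the cytosolic ribosome.

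The tissue came from the basilar artery (BA) and the basilar terminus (BT), the bifurcation at its end, of 4 female New Zealand white rabbits, 24 h after surgery. Rabbits 3 and 4 had sham surgery, which left flow normal, and rabbits 5 and 6 had bilateral ligation of the common carotid arteries, which raises flow through the BA. From each rabbit, strips of intima (the luminal layer with endothelial cells) and of media (the smooth muscle layer) were cut by laser microdissection at both locations. Each of the 8 combinations of layer, location and flow thus held 2 rabbits, and each group can show no more than the spread between 2 animals.

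A ribosome has a small subunit, which reads the mRNA, and a large subunit, which joins amino acids and releases the growing chain through an exit tunnel. Most ribosomal proteins are present in a single copy per ribosome, and the mRNAs of these genes begin with a terminal oligopyrimidine (TOP) tract, through which the TOR kinase pathway controls their translation together. Ribosome production takes a large share of the resources of a growing cell, and in the vessel wall it accompanies the growth of smooth muscle cells. Because much of the control acts on translation, levels of these mRNAs do not by themselves give the number of ribosomes made.

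Library depth, as the total on named genes, was 5211886 to 17686105 counts for the 8 libraries of intima and 2154863 to 11219236 counts for the 8 of media. The labelled layers were checked with marker genes. The summed endothelial markers (9 genes) exceeded those of the matching media in 8 of 8 intimal libraries, and the summed smooth muscle markers (8 genes) did so in 0 of 8. The intima still held smooth muscle RNA, with 13489 to 83422 CPM (counts scaled to the library size) over those 8 genes against 76688 to 128127 CPM in the media. Summed leptomeningeal fibroblast markers (7 genes) lay between 587 and 17497 CPM in the intima and between 5244 and 22059 CPM in the media. Brain parenchymal markers (5 genes with a count) summed to 10.9 CPM at most, and macrophage markers (10 genes) to between 60.4 and 1116 CPM. Transcripts of red blood cells varied strongly, with HBB2, a beta globin gene, taking between 0.000151% and 13.2% of the counts. In such bulk samples, fewer cells of a type and less RNA per cell cannot be told apart.

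The 33 genes together took 2.16% to 3.65% of the counts on named genes. In the BA intima the share was 2.31% and 2.77% in the sham libraries of rabbits 3 and 4, and 3.65% and 2.28% in the ligated libraries of rabbits 5 and 6. The ligated library of rabbit 5 was thus the highest of all 16, while that of rabbit 6 lay just below both sham libraries. In the BT intima the sham libraries had 2.27% and 3.37% and the ligated libraries 2.26% and 2.16%. Here both ligated libraries were lower than both sham libraries, but the lower sham value and the higher ligated value nearly met. In the BA media the shares were 2.36% and 2.60% (sham) and 2.50% and 2.17% (ligated), and in the BT media 2.66% and 3.04% (sham) and 3.21% and 2.43% (ligated). In both media the flow groups overlapped, and the 2 sham rabbits differed by more than the group means did.

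**Figure D1:**
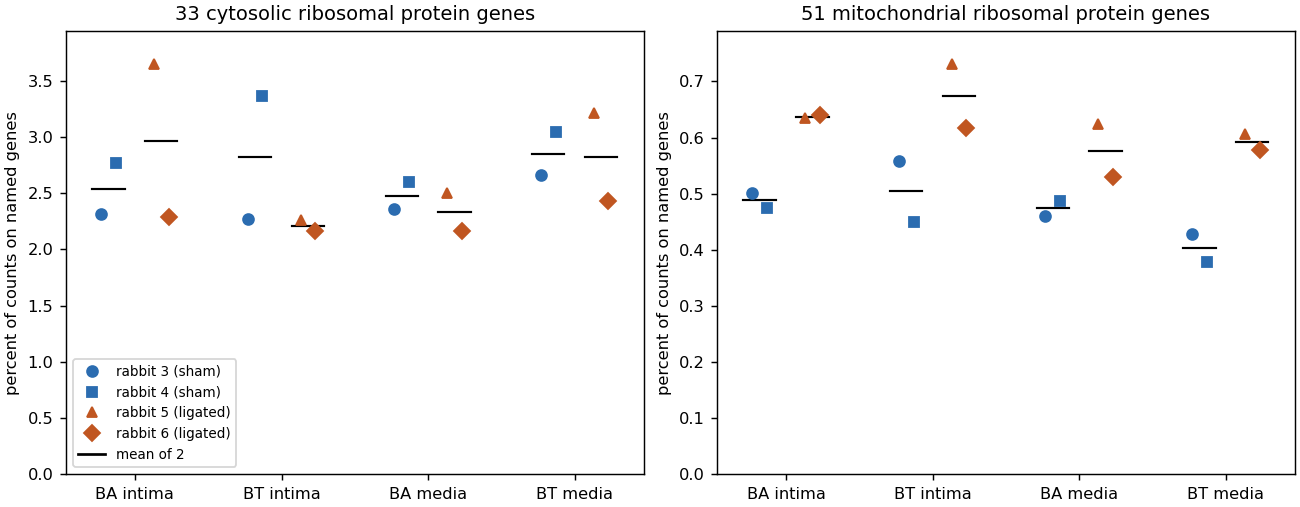
Share of the counts on named genes (percent, from 0) taken by the 33 cytosolic (left) and the 51 mitochondrial (right) ribosomal protein genes in each library, by tissue, with sham rabbits in blue, ligated rabbits in orange and a bar at the mean of 2. The cytosolic genes lay between 2.16% and 3.65% with overlapping flow groups in 3 of 4 tissues, whereas the mitochondrial genes were higher in both ligated libraries than in both sham libraries in each tissue.

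Within this pool the counts were spread unevenly. The 10 members with the most counts took 56.2% of it. RPS27A, RPL21, RPL23A and RPL10 were among the members with the highest mean CPM, but counts were not divided by transcript length, and this is therefore not an order of mRNA levels. RPS27A encodes a 40S protein made as a fusion with ubiquitin, RPL23A a protein beside the mouth of the exit tunnel, and RPL10 a protein near the peptidyl transferase centre that joins the 60S subunit late in its maturation. RPS27A ranged from 1370 to 2820 CPM over the 16 libraries. RPL21 ranged from 1339 to 2502 CPM, RPL23A from 836 to 2434 CPM and RPL10 from 880.4 to 2357 CPM.

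At the other end were 4 members with a mean at or below 10 CPM. RPL10L, a paralog of RPL10 known from testis, had 1 count in 1 library. RPL32 had 250 counts over 16 libraries, RPL3L, a paralog of RPL3 used in striated muscle, had 441, and RPL7L1, a relative of RPL7 that acts in the nucleolus, had 1236. The fifth lowest, RPL26L1, had 21842 counts and 124 to 266 CPM. Only reads that mapped to a single place were counted, and RPL26L1 and RPL26, like RPL10L and RPL10, are close copies between which such counts are uncertain. The ratio of RPL26L1 to RPL26 counts was 0.276 to 0.449 in the BA intima, 0.285 to 0.42 in the BT intima, 0.313 to 0.366 in the BA media and 0.199 to 0.349 in the BT media. Except for RPL10L, all members (32) passed the filter on low counts in every comparison below. RPL10L was not tested.

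The question of the study was how the arterial wall responds to raised flow, and the first 4 comparisons set ligated against sham rabbits in each tissue. They were tested with edgeR's quasi-likelihood F test, with Benjamini-Hochberg adjustment over all genes tested and a q-value threshold of 0.05. No member passed in any of the 4 tissues. Over all genes tested, 0.0% passed in the BA intima, 0.807% in the BA media, 0.0% in the BT intima and 2.32% in the BT media, so that at those rates 1 member or fewer would be called. The paper, working from RPKM values, reported differentially expressed genes at this threshold in all 4 tissues, also in both intimas. Why the calls differ was not tested. At an unadjusted p-value below 0.05 there were 0 members in the BA intima (5.91% of all genes), 2 in the BA media (13.6%), 1 in the BT intima (11.6%) and 3 in the BT media (16.0%), shares of the 32 members that were below those of all genes. With DESeq2, the other tool run, 0 members passed in either intima. It called 1 member in the BA media, and 3 at the BT, which are named below. The shares of all genes given here are those of edgeR. No share over all genes is given for DESeq2, so its calls cannot be set against a background.

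In the BA intima the median log2 fold change of the 32 members was 0.14, against -0.10 for all genes tested, and 29 members had a positive and 3 a negative value. This median rested on single libraries, since each rabbit gave 1 library of this tissue. The median was -0.30 without rabbit 5 and 0.54 without rabbit 6. Of the 16 samples, the paper lists the lowest RNA concentration for the BA intima of rabbit 5. The part of RNA input in these values was not tested. RPL27 was the only member for which both ligated libraries were above both sham libraries (15.4% of all genes), and no member had both below (20%). The smallest p-values were those of RPL27 (log2 fold change 0.73, SE 0.44) and RPL26L1 (0.56, SE 0.47), and RPS7 (0.46, SE 0.49) and RPS12 (0.46, SE 0.53) were also among the 5 smallest of those with a positive value. For none of the 32 members did the 95% interval of the fold change lie within 1 on the log2 scale, and for the 29 members above 10 CPM the median half-width was 1.10. A change of up to 2-fold was thus not resolved here.

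In the BT intima the median was -0.40, against -0.13 for all genes, with 6 members positive and 26 negative. All but 1 of the 13 small subunit members were negative (median -0.42), as were 14 of 19 large subunit members (median -0.36). Both ligated libraries were below both sham libraries for 13 members (25.6% of all genes), and above for 1, RPL19 (20.4%). The sham rabbits differed here more than in the other tissues. The library of rabbit 4, with the most HBB2 of the 16, was far above that of rabbit 3 for most members, and without rabbit 4 the median was 0.06. Of the members with a negative value, the 5 smallest p-values were those of RPS28 (-1.30, SE 0.59), RPL23A (-1.18, SE 0.44), RPS21 (-1.10, SE 0.52), RPS29 (-0.91, SE 0.50) and RPL21 (-0.60, SE 0.39). Of these, RPL23A alone had an unadjusted p-value below 0.05 (edgeR q = 0.392).

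In the BA media the median was 0.045, against -0.14 for all genes (-0.097 against -0.29 without composition scaling), with 17 members positive and 15 negative. Both ligated libraries were above both sham libraries for 8 members (21.0% of all genes), namely RPL5, RPL14, RPL26, RPL27, RPL35A, RPS7, RPS12 and RPS27A. They were below for 7 members (26.0% of all genes), namely RPL10A, RPL11, RPL23A, RPL32, RPS10, RPS21 and RPS28. Here the data were tighter. For 20 of 32 members the 95% interval lay within 1 on the log2 scale, with a median half-width of 0.66 for members above 10 CPM.

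At the BT, the median of the media was -0.16, against 0.03 for all genes, with 8 members positive and 24 negative. Both ligated libraries were above both sham libraries for 5 members (25.4% of all genes), namely RPL3L, RPL4, RPL19, RPL26L1 and RPL27, and below for 10 (23.1%), among them RPL10A, RPL12, RPL23A, RPS10, RPS21, RPS25, RPS28 and RPS29. The interval lay within 1 on the log2 scale for 17 of 32 members, with a median half-width of 0.68. RPL19, which takes part in a bridge between the subunits, had a log2 fold change of 0.54 (SE 0.30), and RPS10, a protein of the head of the 40S subunit, -0.55 (SE 0.31). The median was -0.44 without rabbit 5 and 0.04 without rabbit 6. Without rabbit 3, 1 member passed the edgeR threshold, RPS28, with a negative value.

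**Figure D2:**
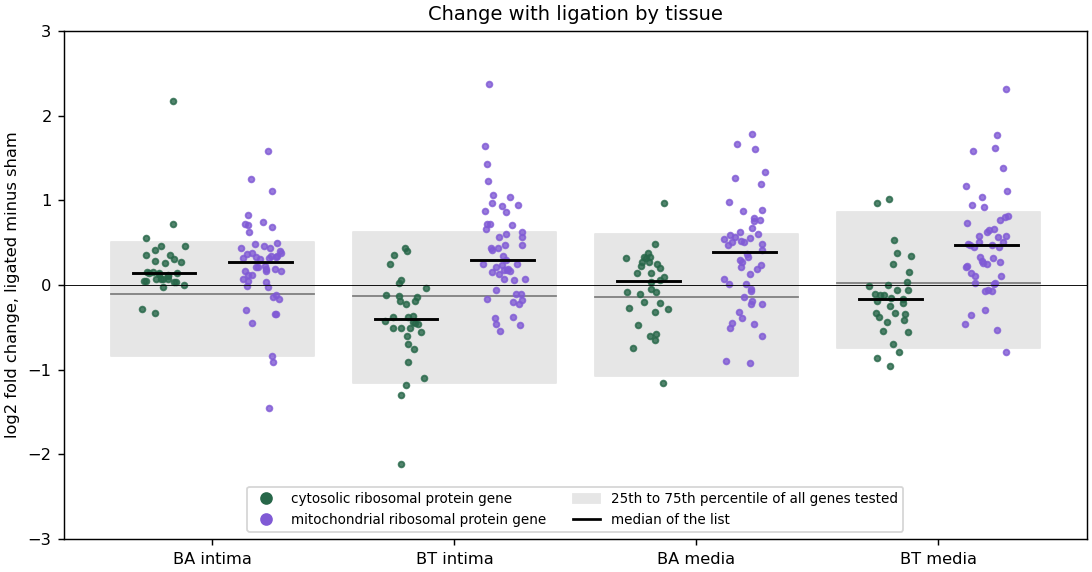
Fitted log2 fold change, ligated minus sham, of each cytosolic (green) and mitochondrial (purple) ribosomal protein gene in the 4 tissues, with a black bar at the median of each list, grey boxes from the 25th to the 75th percentile of all genes tested and a grey line at their median. The medians of the cytosolic genes were 0.14, -0.40, 0.04 and -0.16 from left to right, all inside the grey boxes, and no gene of either list passed the q-value threshold.

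Across the 4 tissues, no member had both ligated libraries above both sham libraries in each, and none had both below in each. Of the 7930 genes tested in all 4, 3.68% lay above throughout and 3.11% lay below throughout. The nearest were RPL27, which had values above in 3 tissues, and RPL23A, RPS10, RPS21 and RPS28, which had values below in 3 tissues. How many of all genes did so in 3 tissues was not counted, so these members cannot be set against a background.

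RPL27 encodes a 60S protein, and its gene is among those mutated in Diamond-Blackfan anaemia, a failure of red cell production. In the BA media it had 576 and 690.3 CPM in the sham libraries and 1322 and 1115 CPM in the ligated libraries. Its values in the BT media were 635 and 632 CPM (sham) and 1587 and 966 CPM (ligated). The ligated libraries were above the sham libraries in both media, with log2 fold changes of 0.97 (95% interval 0.33 to 1.61) and 1.02 (0.32 to 1.72). The edgeR q-values were 0.184 and 0.138. DESeq2 gave q-values of 0.0212 and 0.0264, below the threshold, so that the call of RPL27 depends on the tool. In the BT media it also passed with edgeR when all genes with a count were tested (q = 0.0397). In the BA intima it had 504 and 474 CPM (sham) and 854 and 766 CPM (ligated), again without overlap. Only in the BT intima did the groups meet, with 424 and 538 CPM (sham) and 519 and 785 CPM (ligated).

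RPL23A, whose protein sits where chaperones and the signal recognition particle dock at the exit tunnel, had the opposite order. Its CPM in the BA media were 1894 and 1875 (sham) and 1159 and 1048 (ligated), and in the BT media 2356 and 2407 (sham) and 1554 and 1048 (ligated). The sham libraries nearly coincided and both ligated libraries were well below them. In the BT intima the values were 1436 and 2434 CPM (sham) and 836 and 878 CPM (ligated). The log2 fold changes were -0.75 (95% interval -1.33 to -0.17) in the BA media, -0.86 (-1.53 to -0.20) in the BT media and -1.18 (-2.24 to -0.11) in the BT intima. With edgeR the q-values were 0.250, 0.183 and 0.392, and DESeq2 gave 0.0371 in the BT media. In the BA intima the ligated library of rabbit 5, with 1847 CPM, lay between the sham libraries (1663 and 1880 CPM), while that of rabbit 6 had 969 CPM.

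RPS28, a 40S protein near the exit of the mRNA channel, had 874 and 863 CPM (sham) and 634 and 460.0 CPM (ligated) in the BA media. Its values in the BT media were 1216 and 1581 CPM (sham) and 882 and 547 CPM (ligated). Both media thus had lower ligated libraries, with log2 fold changes of -0.64 (SE 0.30) and -0.96 (SE 0.33). At the BT edgeR gave q = 0.170 and DESeq2 q = 0.0339. In the BA intima it had 763 and 986 CPM (sham) and 1293 and 421 CPM (ligated), the ligated rabbits lying on either side of the sham rabbits, and the log2 fold change of -0.02 (SE 0.58) turned positive under several other settings. RPS21, another 40S protein, followed RPS28 closely. Its values in the BT media were 464 and 574 CPM (sham) and 405 and 236 CPM (ligated), with a log2 fold change of -0.69 (SE 0.34) and q = 0.353 (edgeR).

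**Figure D3:**
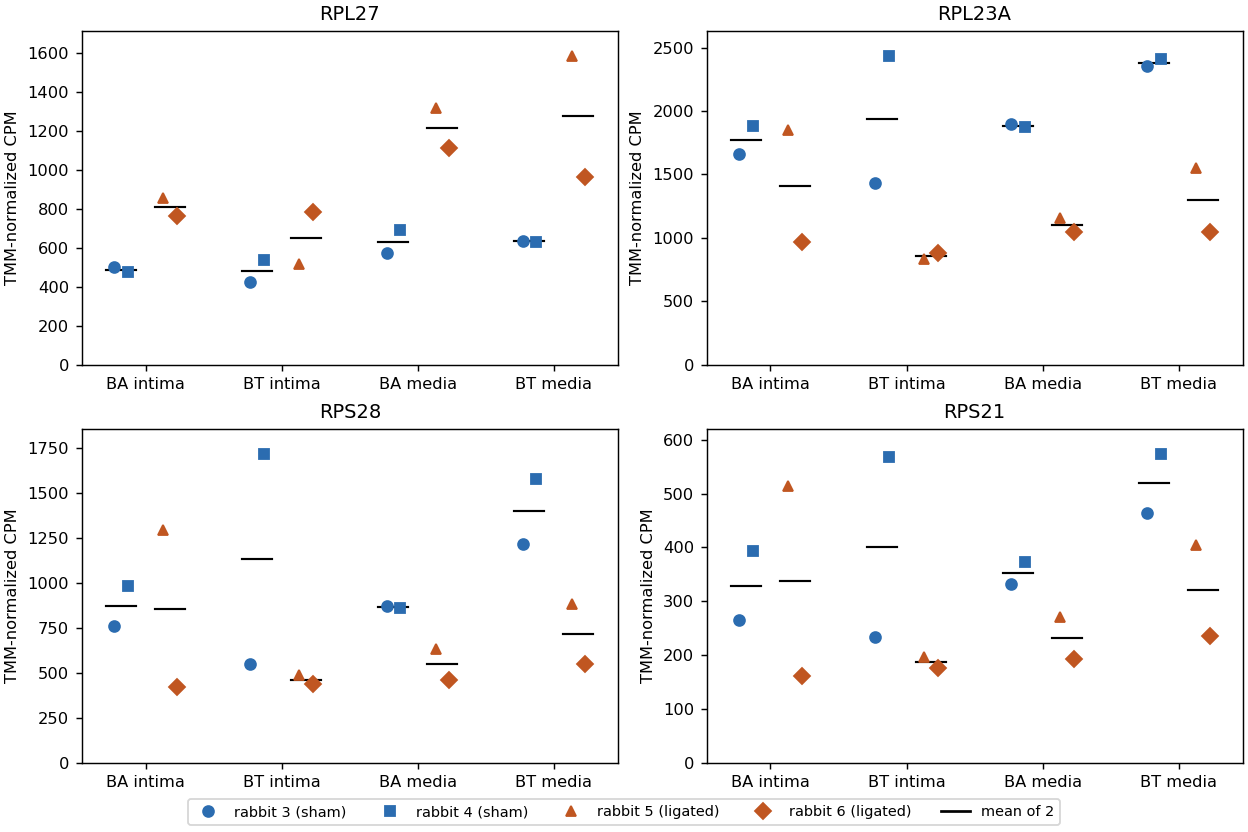
TMM-normalized CPM (from 0) of RPL27, RPL23A, RPS28 and RPS21 in each of the 16 libraries, by tissue, with the marker giving the rabbit, the colour the flow group and a bar at the mean of 2. RPL27 lay higher in both ligated than in both sham libraries everywhere but in the BT intima, and RPL23A, RPS28 and RPS21 lay lower everywhere but in the BA intima.

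Other transcripts differed between the flow groups in the same libraries. In the BA media all 7 leptomeningeal fibroblast markers had negative log2 fold changes with ligation and 3 passed the q-value threshold (edgeR), with summed levels of 22059 and 16158 CPM (sham) and 5680 and 5535 CPM (ligated). In the BT media the sums were 13943 and 18297 CPM (sham) and 5244 and 6431 CPM (ligated), and 1 of 7 markers passed. Of the 8 smooth muscle markers 6 were negative in the BT media, and MYH11 (-1.71, SE 0.33, q = 0.0223) and LMOD1 (-1.51, SE 0.34, q = 0.0438) passed with edgeR, with summed levels over the 8 genes of 114072 and 85571 CPM (sham) and 82224 and 76688 CPM (ligated). In the BT intima, where most members had negative values, all 7 fibroblast markers were negative as well, with sums of 17497 and 5433 CPM (sham) and 587 and 1130 CPM (ligated), and so were 8 of 9 macrophage markers, with sums of 1116 and 142 CPM (sham) and 121 and 60.4 CPM (ligated). None of these passed in the BT intima, and 4 of the fibroblast and 6 of the macrophage markers had an unadjusted p-value below 0.05. Other lists had mostly positive values. In the BT intima 6 of 9 endothelial markers were positive and 3 negative, with such a p-value (edgeR) for 2 and 1 of them. In the BT media 6 of 8 macrophage markers were positive and 2 negative, with such a p-value for 2 and 0 of them. None of these passed the q-value threshold. With HBB2 left out of the scaling, the medians of the members in the BA intima, BA media, BT intima and BT media were 0.14, 0.04, -0.40 and -0.16, as with it. The part of other cells in the values of the members was not tested.

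RPL5 and RPL11, which carry the 5S rRNA into the 60S subunit and bind MDM2 when ribosome assembly fails, had log2 fold changes of 0.16 (SE 0.47) and 0.14 (SE 0.47) in the BA intima. RPL5 had 331 and 410.4 CPM (sham) and 433 and 434 CPM (ligated) in the BA media, and RPL11 had 1242 and 1179 CPM (sham) and 1107 and 1112 CPM (ligated). These groups did not overlap, in opposite directions, but their log2 fold changes of 0.25 (SE 0.30) and -0.10 (SE 0.26) were smaller than their standard errors. In the BT intima RPL11 had 982 and 1623 CPM (sham) and 888 and 946 CPM (ligated), again lower in both ligated libraries, with a log2 fold change of -0.51 (SE 0.43), and RPL5 had -0.19 (SE 0.41). In the BT media RPL5 had 467 and 636 CPM (sham) and 493 and 382 CPM (ligated), which overlapped, with a log2 fold change of -0.33 (SE 0.31), and RPL11 had -0.11 (SE 0.31). RPL5, RPL11, RPL26, RPL27, RPL35A, RPS7, RPS10, RPS28 and RPS29 are among the genes mutated in Diamond-Blackfan anaemia, and under the main settings none of them passed the threshold with edgeR in any tissue. The exceptions under other settings were RPL27 and RPS28, as given above, and DESeq2 called RPL27 in both media and RPS28 in the BT media.

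None of the paralogs passed the threshold with ligation, and their errors were wide. In the BT intima both ligated libraries were below both sham libraries for RPL26L1, RPL7L1 and RPL3L, as for 25.6% of all genes. In the BT media they were below for RPL7L1 (23.1% of all genes) and above for RPL26L1 and RPL3L (25.4%). The order of RPL3L in the BT intima rested on few counts, 32 and 25 (sham) against 4 and 12 (ligated). RPL3L had between 0.346 CPM (BT intima, ligated, rabbit 5) and 9.49 CPM (BA media, sham, rabbit 4), and its log2 fold changes with ligation ranged from -2.12 (SE 1.95) in the BT intima to 2.17 (SE 1.94) in the BA intima. RPL7L1 had between 4.61 and 14.0 CPM and log2 fold changes between -0.75 (SE 1.02) and 0.04 (SE 1.05). RPL26L1 had 0.56 (SE 0.47), 0.33 (SE 0.36), -0.22 (SE 0.39) and 0.38 (SE 0.35) in the BA intima, BA media, BT intima and BT media. For RPL26, which also acts on the mRNA of p53, the values were 0.00 (SE 0.47), 0.27 (SE 0.29), -0.51 (SE 0.41) and -0.12 (SE 0.31). RPL10 had 0.13 (SE 0.45), 0.15 (SE 0.27), 0.02 (SE 0.43) and -0.25 (SE 0.31) in the same order.

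To separate the make-up of the pool from its size, each member was expressed as a percentage of the summed counts of the 33 members. The 29 members above 10 CPM then varied less, with a median SD over 16 libraries of 0.20 on the log2 scale against 0.36 for their CPM. The steadiest shares were those of RPS20 (SD 0.11), RPS13 (0.11), RPL11 (0.11), RPL35A (0.12) and RPS12 (0.14). The most variable were those of RPL27 (0.53), RPL4 (0.44), RPS28 (0.44), RPL23A (0.38) and RPS21 (0.38). RPL4, whose protein lines the narrow part of the exit tunnel, ranged from 1.73% to 4.60% of the pool.

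Of the 29 shares, 1 separated the 8 sham libraries from the 8 ligated libraries, and 28 overlapped. The share of RPL23A was between 7.06% and 7.66% in the sham libraries of all 4 tissues and between 4.08% and 5.37% in the ligated libraries. In the BA intima it was 7.21% and 7.18% in sham rabbits 3 and 4 and 5.37% and 4.76% in ligated rabbits 5 and 6, and in the BA media 7.60% and 7.06% (sham) and 4.08% and 4.31% (ligated). At the BT it was 7.42% and 7.38% (sham) and 4.24% and 4.31% (ligated) for the intima, and 7.66% and 7.09% (sham) and 4.64% and 4.34% (ligated) for the media. RPL27 came close to a separation in the other direction, with 1.63% to 2.60% in the sham libraries (median 2.12%) and 2.49% to 4.73% in the ligated libraries (median 3.92%). For RPS28 the ranges were 2.84% to 5.21% (sham) and 1.89% to 3.76% (ligated), and for RPS21 1.15% to 1.72% (sham) and 0.791% to 1.49% (ligated). The 8 libraries of a flow group came from 2 rabbits, so that they are not 8 replicates, and a difference between rabbits and a difference with flow cannot be told apart here. No test was made of these shares, and no such count was made for other genes.

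**Figure D4:**
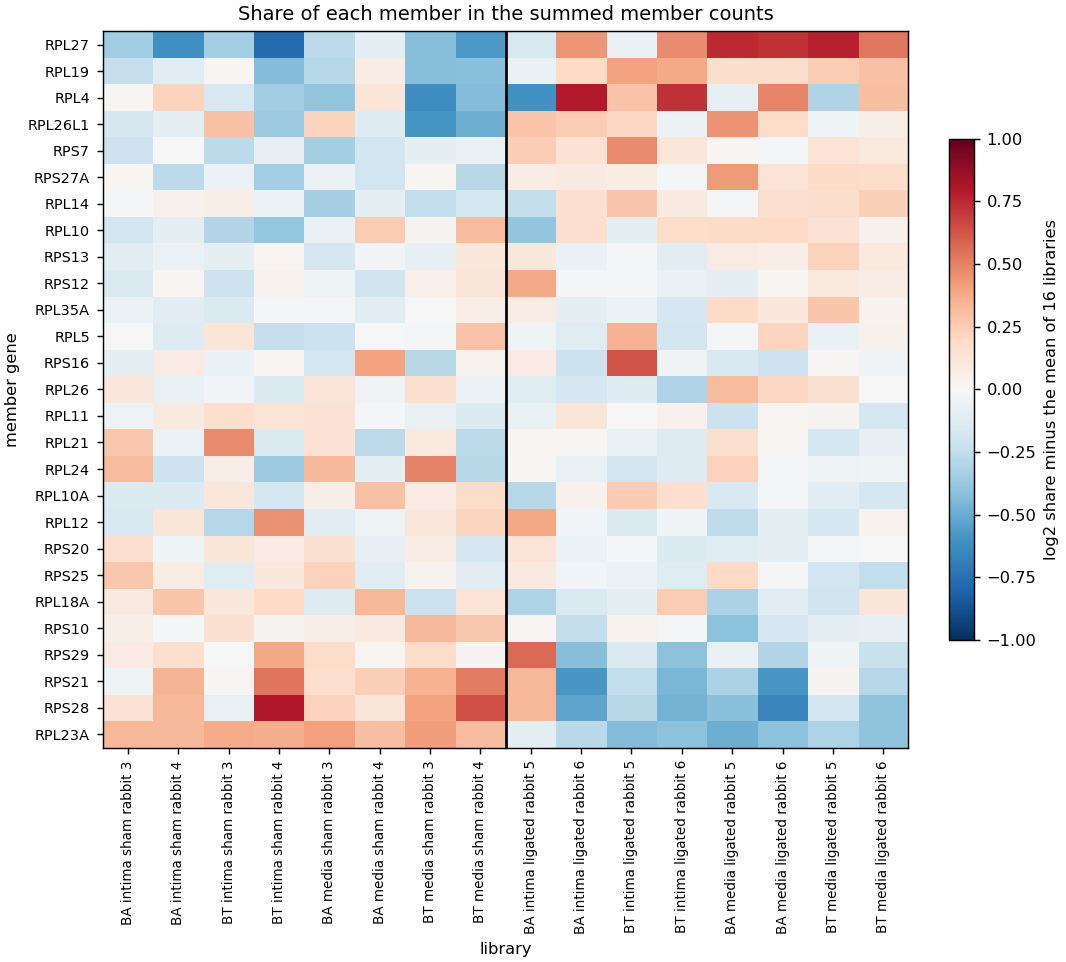
Share of 27 of the 29 members above 10 CPM in the summed counts of the members, as the log2 share minus its mean over the 16 libraries (colour, red above and blue below), with 8 sham libraries left and 8 ligated libraries right of the line and members ordered by the difference between them. RPL23A was above its mean in all 8 sham libraries and below it in all 8 ligated libraries, and RPS28, RPS21 and RPS29 were high in the ligated BA intima library of rabbit 5 and low in that of rabbit 6, where RPL4 was highest.

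The members moved together from library to library. The median Pearson r of log2 CPM over the 406 pairs of 29 members was 0.69 across the 16 libraries, against 0.14 over the 1176 pairs of 49 mitochondrial ribosomal protein genes and -0.0028 over pairs of the 5591 genes above 10 CPM. These sets were not matched for level. All members summed to 19362 to 34374 CPM, and all mitochondrial ribosomal protein genes to 4218 to 7085 CPM. The part of level in these r values was not tested. The 16 libraries share rabbits and depth, and no p-value is given. Since the members moved together, counts of members with the same sign, above and below, are not counts of separate observations. The closest pairs were RPS21 with RPS28 (r = 0.98), RPL35A with RPS13 (0.98), RPS20 with RPS29 (0.97) and RPS12 with RPS13 (0.95). RPL4 stood apart, with a median r of -0.12 with the other members and r = -0.53 with RPL21 and -0.48 with RPL23A, and RPL27 was next, with a median of 0.30. Outside the members, the genes whose CPM were most like the summed members over the 16 libraries, of 5562 compared, were KANK3 (r = 0.88), ROMO1 (0.87), CHMP4B (0.81), SMAD7 (0.81) and NF1 (0.81).

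Intima and media of the same rabbits were then compared, with rabbit as a block. In the BA no member passed the q-value threshold (edgeR; 0.466% of all genes), 1 had an unadjusted p-value below 0.05 (12.3% of all genes), and DESeq2 called 0. The median log2 fold change, intima minus media, was -0.052, against 0.0012 for all genes, and it was 0.19 against 0.24 without composition scaling. No member was higher in the intima in 4 of 4 rabbits (11.9% of all genes), and 4 were lower (10.5%), namely RPL10, RPL26, RPL27 and RPS27A. The median difference of the 29 members above 10 CPM was -0.13 in rabbit 3, -0.00077 in rabbit 4, 0.25 in rabbit 5 and -0.26 in rabbit 6, so that rabbit 5 went against the others. The value of rabbit 5 rests in part on its BA intima library, the one with the lowest RNA concentration. RPL27 had the smallest p-value, with a log2 fold change of -0.52 (SE 0.20) and q = 0.338 (edgeR). For 29 of 32 members the 95% interval lay within 1 on the log2 scale, and a layer difference of 2-fold or more is thus outside the interval of nearly all members in the BA.

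In the BT the intima had lower values of the members, although none passed the threshold (edgeR; 1.95% of all genes). The median log2 fold change was -0.46, against 0.07 for all genes, and 30 of 32 members were negative. An unadjusted p-value below 0.05 was found for 11 members, all lower in the intima (14.4% of all genes in either direction). In 4 of 4 rabbits 16 members were lower in the intima (12% of all genes) and 0 were higher (13.9%). Such counts come from the same 4 rabbits and from members that moved together, so they are not separate observations. In rabbit 4 the members were split, with 14 higher and 18 lower. The median differences of the 29 members were -0.71, -0.06, -0.77 and -0.30 in rabbits 3, 4, 5 and 6. RPL10 had 880.4, 1402, 1033 and 1290 CPM in the intima of rabbits 3, 4, 5 and 6, and 1749, 2357, 2059 and 1385 CPM in their media. Its intima was below its media in each rabbit, with a log2 fold change of -0.71 (SE 0.24) and q = 0.206 (edgeR). RPL26 (-0.64, SE 0.23), RPL35A (-0.62, SE 0.24) and RPL24 (-0.62, SE 0.24) followed, with q-values from 0.240 to 0.286. DESeq2 called 3 members lower in the intima, RPL5, RPL10 and RPL26, again without its share over all genes. The smooth muscle markers differed in the same pairs, with all 8 lower in the BT intima and 4 past the threshold, and summed levels of 13489 to 52261 CPM in the BT intima against 76688 to 114072 CPM in the BT media. Their part in the difference of the ribosomal protein genes was not tested. Without composition scaling the medians were -0.22 for the members and 0.31 for all genes, so that all genes shifted by as much as the members did.

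The BT and the BA, which differ in the shear stress on the wall, were compared within each layer in the same way. In the intima no member passed (edgeR; 0.011% of all genes), 0 had an unadjusted p-value below 0.05 (3.84%), and DESeq2 called 0. The median log2 fold change, BT minus BA, was -0.20, against 0.00 for all genes, and 31 of 32 members were negative in the fit. The rabbits were divided, however, with medians of -0.25, 0.27, -0.80 and -0.04 for the 29 members in rabbits 3, 4, 5 and 6. Accordingly, 0 members were higher (5.75% of all genes) and 0 were lower (6.13%) at the BT in 4 of 4 rabbits. The median of rabbit 5 again rests in part on its BA intima library, with the lowest RNA concentration. The smallest p-value was that of RPL24, which forms a bridge between the subunits (log2 fold change -0.34, SE 0.24). All 8 smooth muscle markers also had lower fitted values in the BT intima (median -0.96), and 3 of them had an unadjusted p-value below 0.05, with summed levels of 39777 to 83422 CPM in the BA intima and 13489 to 52261 CPM in the BT intima. Their part was not tested.

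In the media the rabbits had the same sign, with medians of 0.33, 0.35, 0.32 and 0.04. Higher values at the BT in 4 of 4 rabbits were found for 14 of 32 members (7.31% of all genes), and lower values for 2, RPL7L1 and RPL26L1 (6.69%). Here too the members moved together, and their counts are not separate observations. The median log2 fold change was 0.21, against 0.01 for all genes, and all 13 small subunit members were positive (median 0.32), as were 15 of 19 large subunit members (median 0.14). No member passed the threshold with edgeR (0.0227% of all genes) or DESeq2, and 3 had an unadjusted p-value below 0.05 (5.26% of all genes), among them RPS28 (log2 fold change 0.51, SE 0.20) and RPS21 (0.49, SE 0.21). RPS28 had 874, 863, 634 and 460.0 CPM in the BA media of rabbits 3, 4, 5 and 6, and 1216, 1581, 882 and 547 CPM in their BT media, higher in each. In the same pairs all 9 endothelial markers had higher fitted values at the BT (median 0.82), and 3 had an unadjusted p-value below 0.05, with summed levels of 460.2 to 1062 CPM in the BA media and 593 to 1666 CPM in the BT media. Of the 8 smooth muscle markers, 3 were higher, 2 of them with an unadjusted p-value below 0.05, and 5 were lower. No marker of these lists passed with edgeR, and their part in the values of the members was not tested. For 29 of 32 members the 95% interval lay within 1 on the log2 scale.

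**Figure D5:**
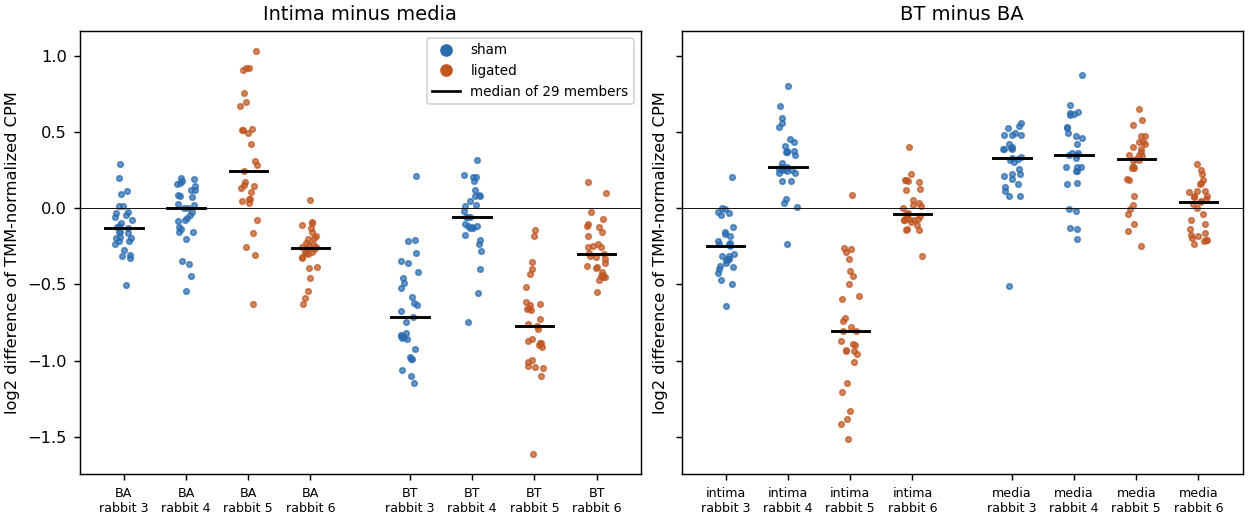
Log2 difference of TMM-normalized CPM between paired tissues of the same rabbit for the 29 members above 10 CPM (points, blue for sham and orange for ligated rabbits), as intima minus media (left) and BT minus BA (right), with a bar at the median. The medians were below 0 in all 4 rabbits for the BT layers, down to -0.77, above 0 in all 4 rabbits for the media, up to 0.35, and of both signs for the BA layers and for the intima.

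Whether the difference with ligation itself differed between locations or layers was tested as an interaction, with rabbit as a block. No member passed for location in the intima (edgeR; 0.0% of all genes), location in the media (0.491%), layer in the BA (0.0%) or layer in the BT (0.0%). Nor did any reach an unadjusted p-value below 0.05, as 3.47%, 9.06%, 2.44% and 4.8% of all genes did, and DESeq2 called 0 in each. The median of the members was -0.45 for location in the intima (all genes -0.08), with 30 of 32 negative, and RPL26L1 had the smallest p-value there (-0.76, SE 0.45). For location in the media it was -0.16 (all genes 0.12) and turned to 0.13 (all genes 0.40) without composition scaling, with RPL5 at -0.58 (SE 0.33). For layer in the BA the median was 0.12 (all genes -0.13), and for layer in the BT -0.22 (all genes -0.27). These 4 interactions use the same 16 libraries as the comparisons above and are no independent evidence of them. In the intima and at the BT the interval of no member lay within 1 on the log2 scale, so that differences of 2-fold were not resolved there.

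The mitochondrial ribosomal proteins, which build the separate ribosome inside mitochondria and are also encoded in the nucleus, were taken as the most similar set (51 genes with a count). Their summed share was 0.502% and 0.474% in the sham and 0.634% and 0.641% in the ligated libraries of the BA intima. It was 0.559% and 0.450% (sham) and 0.731% and 0.616% (ligated) in the BT intima, 0.461% and 0.488% (sham) and 0.623% and 0.530% (ligated) in the BA media, and 0.428% and 0.378% (sham) and 0.607% and 0.578% (ligated) in the BT media. In each tissue both ligated libraries were above both sham libraries, unlike the cytosolic genes. The median log2 fold changes with ligation were 0.27, 0.39, 0.30 and 0.47 in the BA intima, BA media, BT intima and BT media, and 38 of 50, 36 of 50, 39 of 51 and 41 of 49 genes were positive. None passed the q-value threshold with edgeR, and 1, 6, 2 and 7 had an unadjusted p-value below 0.05 with a positive value and 0 with a negative one. Over all genes tested, 5.91%, 13.6%, 11.6% and 16.0% had such a p-value in either direction. These counts of p-values, out of about 50 genes, were thus not above the background. By direction, both ligated libraries were above both sham libraries for 17 of 50, 22 of 50, 23 of 51 and 27 of 49 genes. Of all genes, 15.4%, 21.0%, 20.4% and 25.4% were above in this way, a smaller share in each tissue. Below in both were 3, 5, 3 and 1 genes of the list. These counts by direction had no test. The smallest p-values were those of MRPS7 in the BT media (1.62, SE 0.39, q = 0.0543) and MRPS18B in the BA media (1.78, SE 0.39, q = 0.0884).

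Other genes of the pathway were taken as lists. Among 31 matched ribosome biogenesis genes, which make and process rRNA and assemble the subunits, the median log2 fold changes with ligation were 0.26, 0.67, 0.35 and 0.53 in the BA intima, BA media, BT intima and BT media, with 20 of 30, 25 of 29, 21 of 30 and 24 of 29 positive. The medians of all genes tested were -0.10, -0.14, -0.13 and 0.03. An unadjusted p-value below 0.05 (edgeR) was found for 2, 7, 0 and 6 genes of the list, all positive. Of all genes, 5.91%, 13.6%, 11.6% and 16.0% had such a p-value in either direction. None of the list passed, and the smallest q-value was that of FBL, the methyltransferase of box C/D snoRNPs, in the BT media (1.79, SE 0.47, q = 0.0758, edgeR). WDR12, which helps to assemble the 60S subunit, had 1.28 (SE 0.48) in the BA intima and 1.61 (SE 0.45) in the BA media. Among the other TOP mRNAs (12 tested, mainly translation factors) the medians were 0.19, 0.53, 0.16 and -0.05 in the same order, and none passed. IPO5, an importin that carries ribosomal proteins into the nucleus, had 1.19 (SE 0.30, q = 0.134) in the BA media. Among the genes listed for the TOR pathway and TOP control, none passed with ligation. Their medians were 0.18, 0.43, 0.61 and 0.36 in the same order, with 12 of 17, 10 of 16, 12 of 17 and 10 of 16 positive. In this list EIF2S1, the alpha subunit of eIF2, had 1.69 (SE 0.41, q = 0.118) in the BA media. It had 1.46 (SE 0.54) in the BT intima and 1.32 (SE 0.48) in the BT media. TSC2 had negative values in the BA intima (-1.34, SE 0.49) and the BT media (-1.13, SE 0.37), with the smallest p-value of the list in each. In the BT, PDCD4, an inhibitor of the helicase eIF4A, was higher in the intima (log2 fold change against the media 1.94, SE 0.27, q = 0.0257). EIF4EBP1, a repressor of cap-dependent translation under TOR, was lower there (-1.44, SE 0.28, q = 0.0492, edgeR). These were the only genes of the translation lists past the threshold in the 8 comparisons of flow, layer and location. In the BA the layer differences of PDCD4 (1.97, SE 0.41) and EIF4EBP1 (-1.41, SE 0.30) were similar, each with q = 0.100 (edgeR).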

How the data were processed

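RNA of about 10 pooled sections per sample was amplified by the authors with SMART-Seq v4, and Nextera libraries were sequenced as single reads. Per the study's methods and submitters' processing notes, reads were aligned to OryCun2.0 with STAR, and uniquely mapped reads were counted with featureCounts 1.6.2 set to reverse strand, a setting for stranded reads. These kits do not mark strand, so reads of overlapping genes on opposite strands cannot be told apart, and how the setting affected the counts was not tested. The deposited table holds raw counts for each gene symbol, without normalization. Discarding reads with several matches lowers counts of ribosomal protein genes, which have many processed pseudogenes. An entry without a symbol (13.8% to 18.7% of counts) was left out, and 22 symbols that had become dates were kept as they stood. All 16 columns were used.

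Counts were tested with edgeR 4.0.16 in R 4.3.3 (TMM, quasi-likelihood F test with legacy = TRUE). Genes with a group mean above 1 CPM in at least 1 group were tested, and Benjamini-Hochberg q-values below 0.05 were called. Flow was compared in each tissue by its own fit (2 ligated and 2 sham libraries). Layer, location and interaction fits held rabbit as a block, since the labels name the rabbit of each library. Deviations of libraries of the same rabbit from their group means correlated at r = 0.23 to 0.44 in sham and -0.02 to 0.12 in ligated pairs (5374 genes). CPM in the text are TMM-normalized over 16 libraries, and within-rabbit differences are log2(CPM + 0.5). Chi-square per degree of freedom between replicates over the members was 22.3 to 306, and counting error was thus a small part of the spread. The p-values and intervals of flow rest on the spread between 2 rabbits a group. Those of the fits with a block rest on the spread of within-rabbit differences over 4 rabbits. In both, edgeR draws the dispersion of each gene towards that of the other genes.

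The members and gene lists were chosen with earlier results of these data known. Named in each comparison are members with the smallest p-values in each direction, RPL5 and RPL11, paralogs with their parent genes, and the members with extreme mean CPM or pool share variation. Other genes were named after seeing their values. Some members that this rule names are not reported here by name, and stay in all counts and medians. Simulated data were used to check the tests. Alternatives tried were no scaling, RLE factors, scaling without the members, by the members or without HBB2, other filters, edgeR's version 4 form, DESeq2 1.42.0, joint fits, no block, counts summed per rabbit, and leaving out each rabbit.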

Additional observations from a re-analysis of the deposited data

How the results depend on the processing

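No member passed the q-value threshold in the 12 comparisons under the main settings, and this held under the alternatives tried except in 5 cases. With DESeq2, 1 member passed with ligation in the BA media, 3 at the BT, and 3 between the BT layers, with no DESeq2 share over all genes beside them. In the BT media 1 member passed when all genes with a count were tested, and leaving out a rabbit gave 0 to 1. Of the medians of the members, 165 of 176 alternative values moved by less than the SD between rabbits. That SD was 0.17 to 0.52, larger than the median itself in most comparisons. The count therefore does not show that the medians kept their size or sign. In the BA media, a median of 0.045 that became -0.097 is among those within the SD. When each rabbit was left out in turn the median ranged from -0.30 to 0.54 in the BA intima, from -0.70 to 0.056 in the BT intima, from -0.36 to -0.0066 for location by flow in the media and from -0.20 to 0.37 for layer by flow in the BA. Without composition scaling it was 0.19 for the BA layers (all genes 0.24) and 0.13 for location by flow in the media (all genes 0.40). Relative to the summed members, which centres them by construction, it was -0.032 for the BT layers, -0.0011 for location in the media and 0.067 for location by flow in the media. With counts summed per rabbit over both layers and rabbit as a block, location gave a median of -0.10, RPS28 -0.081 and RPS21 -0.056. These medians had no test.

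Of the 4 members followed one by one in the BA intima (RPL27, RPL23A, RPS28 and RPS21), 3 changed sign. RPS28 was 0.030 without scaling, 0.025 with RLE factors and with DESeq2, and 0.0051 in a fit over a layer. RPS21 was -0.21 relative to the summed members. Leaving out rabbits gave ranges of -1.06 to 0.58 for RPS28, -1.04 to 0.66 for RPS21 and -0.88 to 0.073 for RPL23A. The cause was not tested. Without the replicate block the median was -0.025 for the BA layers, -0.36 for the BT layers, -0.18 and 0.22 for location in the intima and the media, and the absence of the block changed no call of a member.

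Without mitochondrially encoded genes and the 20 most abundant other genes in the total, the mean share of the members rose from 2.54% to 3.76% (BA intima, sham), 2.82% to 4.06% (BT intima, sham), 2.21% to 2.87% (BT intima, ligated), 2.48% to 3.70% (BA media, sham), 2.33% to 3.42% (BA media, ligated), 2.85% to 4.42% (BT media, sham) and 2.82% to 4.02% (BT media, ligated), and in the ligated BA intima it moved by less than the SD. With 2 rabbits a group, changes of up to 2-fold were not resolved in the intima.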
